A study of Camponotus fellah with 299 samples.

Results

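Old foragers were compared with young foragers of the carpenter ant Camponotus fellah, in RNA-seq of single brains. A forager was an ant with a nurse-forage ratio of 0.4 or more in the labels, which 53 of the 289 labelled ants had. Of these, 22 were old (30 months or more) and 14 were young (20 months or less), so 36 of the 299 ants of the series entered the comparison. The 17 foragers aged 21 to 29 months, called middle-aged here, were kept apart from it. Colony and the ratio were covariates, so the contrast asks what differed with age among ants in the same role.

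The series covers 3 colonies, numbered 2, 3 and 4, whose ants were tracked for their behaviour before they were killed, and its title concerns the place of a worker in the social network. The sources used here name no treatment or genotype, and each library is the brain of 1 ant. The old foragers were 2, 11 and 9 ants of colonies 2, 3 and 4, with ages of 30 to 46 months and a mean of 35.8 ± 5.41 months (SD, n = 22). The young foragers were 7, 1 and 6 ants of those colonies, with ages of 4 to 20 months and a mean of 14.6 ± 5.75 months (SD, n = 14). Colony and age class were therefore partly tied, and colony 3 had a single young forager, ant B038, aged 14 months. The ants below the ratio, called non-foragers, were 74, 79 and 83 in colonies 2, 3 and 4, of which 3, 4 and 10 were old and 59, 63 and 69 were young.

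Ant workers commonly change tasks with age, a pattern called age polyethism: they start with brood and queen inside the nest and move to guarding and foraging later. Foragers leave the nest, handle food and meet most of the hazards outside. Age and role thus usually go together, and ants that forage young, or are old and forage still, let one vary while the other is held.

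Most of the behaviour tallies compared between the roles went with the name forager, and guarding did not. Food exchange by mouth (trophallaxis) on the foraging side was tallied for 40 of the 53 foragers, or 75.5%, and for 7 of the non-foragers, or 2.97%. Brood care was tallied for 13.2% of the foragers and 69.5% of the non-foragers, and queen attendance for 1.89% of the foragers and 61.9% of the non-foragers. The labels do not define the ratio or the maturity value. Maturity, turned round in colony 4 where it ran against age and brood care, was 0.825 or more in every old forager and 0.887 or more in every young forager. Just below the ratio threshold lay ants at 0.364 and 0.372, and just above it ants at 0.442 and 0.489.

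Library totals were 23.4 to 68.4 M counted reads (M, 1e+06 reads) in the old foragers and 22.4 to 62.3 M in the young foragers, within the 19.8 to 73.2 M of the whole series. No pair of forager libraries looked like a repeat, with a highest correlation of 0.9876 and a median over ants of 0.9828 to the nearest other forager. Ants A106 (young), B040 (old) and C018 (middle-aged) lay farthest out on the first principal component of the foragers. Ants C117 and C071 (young) and C084 (middle-aged) of colony 4 had body lengths of 11.5, 12.4 and 12.8, against at most 10.4 in the other 50 foragers (the labels name no unit). A head width of 0.14 in an old forager of colony 3 stood below the next lowest, 1.15. Main counts are given with and without the first 2 sets of ants, and head width entered no expression model.

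None of 13 values, the labels and the library total, passed a test between the age classes, by permutation of ages within colonies. The ratio averaged 0.836 ± 0.146 in old foragers and 0.756 ± 0.183 in young foragers (SD, n = 22 and 14), which gave the smallest permutation p, 0.137, or 0.711 after Benjamini-Hochberg adjustment. By colony the old and young means were 0.868 and 0.668 in colony 2, and 0.939 and 0.824 in colony 4. In colony 3 the old mean was 0.746 and B038 alone had 0.957. Ratio and age class were thus partly tied within colonies. Oriented maturity averaged 0.961 ± 0.0536 in old foragers and 0.963 ± 0.0384 in young foragers. Body length averaged 9.14 ± 0.724 in old foragers and 8.98 ± 1.37 in young foragers. Guarding averaged 0.682 ± 1.25 tallies per ant in old foragers and 1.50 ± 2.21 in young foragers (permutation p = 0.257). Foraging-side trophallaxis averaged 2.68 ± 2.77 tallies in old foragers and 2.93 ± 2.89 in young foragers (permutation p = 0.417). Queen attendance was 0 in all 36 ants and was not tested. The 2 classes thus covered overlapping ranges of ratio, size and tallied work, while their ages lay at least 10 months apart.

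**Figure D1:**
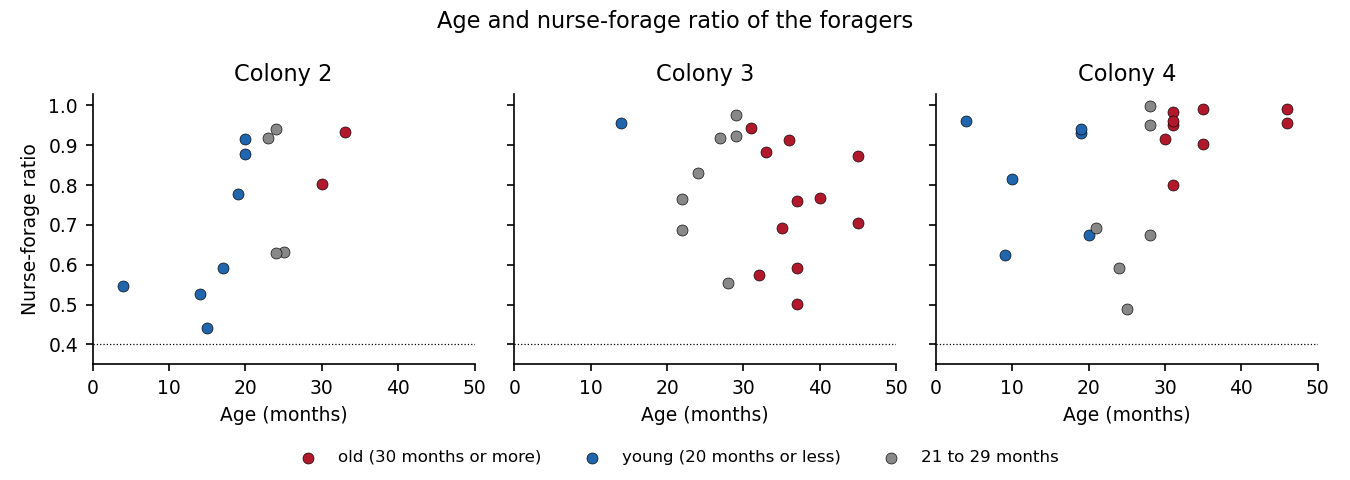
Nurse-forage ratio (no unit) against age in months for the 53 foragers, a panel for each colony, with 1 point per ant and the dotted line at the threshold of 0.4. Colony 3 holds 11 old foragers and 1 young forager, while colony 2 holds 2 old foragers and 7 young foragers.

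In the brain, hardly any gene passed the test between old and young foragers. Of 10263 gene models tested, 1 was called in edgeR's quasi-likelihood test at an adjusted p below 0.05 (0.00974%), and it was lower in old foragers. An unadjusted p under 0.05 was reached by 369, or 3.60%, and by 748 with the ratio left out of the model. DESeq2 called 1 gene and limma-voom 0, with 439 at an unadjusted p under 0.05. The median absolute log2 fold change was 0.06, smaller than the median standard error of 0.10. The 95% interval of the difference lay inside ±0.5 log2 for 7940 genes (77.4%) and inside ±1 log2 for 9482 genes (92.4%). A change of 1 log2 was thus outside the interval for most genes.

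The scatter was widest where counts were low. Among the 2566 least abundant of the tested genes the median standard error was 0.25 log2 and 82 genes had an absolute log2 fold change above 1. Among the 2566 most abundant the median standard error was 0.07 log2 and no gene went past 1. Age class took up 2.91% of the variance left by colony and ratio, against 3.12% for a term unrelated to the data. The first principal component held 15.5% of the variance, with means of -1.81 ± 17.7 in old foragers and 5.78 ± 23.2 in young foragers (SD, permutation p = 0.297 within colonies, adjusted over 3 components to 0.445).

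**Figure D2:**
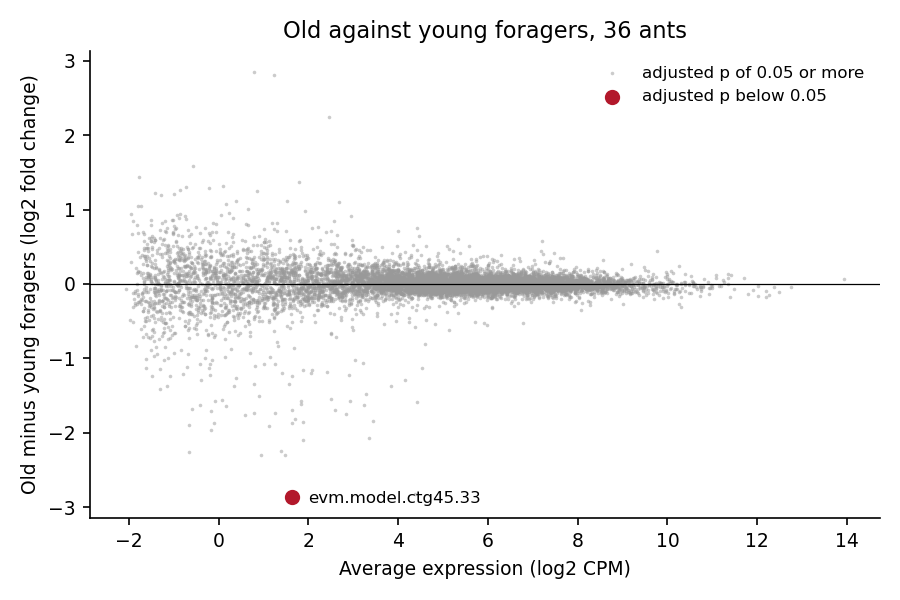
Log2 fold change of old minus young foragers against average expression in log2 CPM (reads per M counted reads), 1 point per gene model, with the called gene in red. Most genes sit close to 0, and the spread widens to the left, where counts are low.

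The only called gene, evm.model.ctg45.33, was scarce. The deposited table pairs its identifiers with no gene names and no reference table was used here, so its product is not given. Its level was 0.0571 to 3.60 CPM (reads per M counted reads) in old foragers, with a median of 1.15 CPM, and 0.351 to 21.7 CPM in young foragers, with a median of 3.36 CPM. The classes overlapped: 7 of the 14 young foragers lay above the highest old forager, and 2 of the 22 old foragers lay above the young median. The middle-aged foragers had 0.427 to 5.49 CPM with a median of 2.63 CPM, between both classes. The log2 fold change was -2.86 ± 0.49 (SE, edgeR adjusted p = 0.0120).

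This call rested on 1 ant. The highest value, 21.7 CPM, was that of B038, the lone young forager of colony 3. Without B038 the log2 fold change was -2.38 ± 0.67, the edgeR adjusted p was 1.00 and no gene was called among old and young foragers. Leaving out each of the other 35 ants kept the call. The next highest young forager, C013 of colony 4, had 19.6 CPM. Without C013 the log2 fold change was -2.43 ± 0.45 and the edgeR adjusted p was 0.0487, just under the threshold. Within colonies the log2 fold change was -2.12 ± 1.26 in colony 2, -3.21 ± 1.17 in colony 3 and -1.01 ± 0.53 in colony 4, and none passed edgeR's test (adjusted p of 0.998 or more). The identifiers read as a contig and a model number, with no coordinates here to check the order along the contig. On the same contig, 12 others within 10 numbers of the called gene were tested. Of those, 4 had log2 fold changes of -2.82 to -1.87 in old foragers, at median levels of 0.255 to 0.799 CPM, and none of the 12 was called (smallest edgeR adjusted p 0.999). An absolute log2 fold change above 1 was reached by 1 of 24 other genes tested on that contig and by 0.896% of all genes. Among the 2566 least abundant genes, which are nearer to the 4 in level, 82 reached it. Over the 36 ants Spearman's rho with the called gene was 0.40 to 0.81 for the 4 and -0.33 to 0.18 for the others of the 12. B038 had the highest value in 1 of the 4.

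Among genes with a median of at least 4 CPM none passed the test, and the 3 described next, 2 higher and 1 lower in old foragers, had the smallest p in their direction. Their values show what the top of that ranking looked like. The counts of ants given for them pool the colonies and were made for the named genes only. Gene model evm.model.ctg26.8 had 16.4 to 41.1 CPM in old foragers, with a median of 25.7 CPM, and 10.4 to 24.4 CPM in young foragers, with a median of 15.2 CPM. Every old forager lay above the young median, and 13 of 22 lay above the highest young forager. The level of this gene also went with colony, with medians of 12.9, 18.9 and 22.8 CPM in young non-foragers of colonies 2, 3 and 4. Colony 2 held 7 of the 14 young foragers and 2 of the 22 old ones, so colony enters these counts. The log2 fold change was 0.46 ± 0.13 (SE), with an edgeR adjusted p of 0.999. It was 0.38 ± 0.25 in colony 2 and 0.43 ± 0.20 in colony 4 but -0.18 ± 0.27 in colony 3, where B038 had 24.4 CPM, the highest of the young foragers.

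Gene model evm.model.ctg2.205 had 7.71 to 16.9 CPM in old foragers, with a median of 11.4 CPM, and 6.07 to 12.7 CPM in young foragers, with a median of 7.78 CPM. All but 1 of the 22 old foragers lay above the young median, and 6 lay above the highest young forager. The log2 fold change was 0.46 ± 0.13 (SE, edgeR adjusted p = 0.999) and positive in each of the 3 colonies, at 0.34 ± 0.27, 0.38 ± 0.39 and 0.36 ± 0.18 in colonies 2, 3 and 4.

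Gene model evm.model.ctg47.59 had 62 to 100.8 CPM in old foragers, with a median of 80.4 CPM, and 80.8 to 123.2 CPM in young foragers, with a median of 97.8 CPM. All 14 young foragers lay above the old median, and 12 of the 22 old foragers lay below the lowest young forager. The log2 fold change was -0.20 ± 0.06 (SE, edgeR adjusted p = 0.999) and negative in each colony, at -0.12 ± 0.10, -0.17 ± 0.18 and -0.18 ± 0.09 in colonies 2, 3 and 4.

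**Figure D3:**
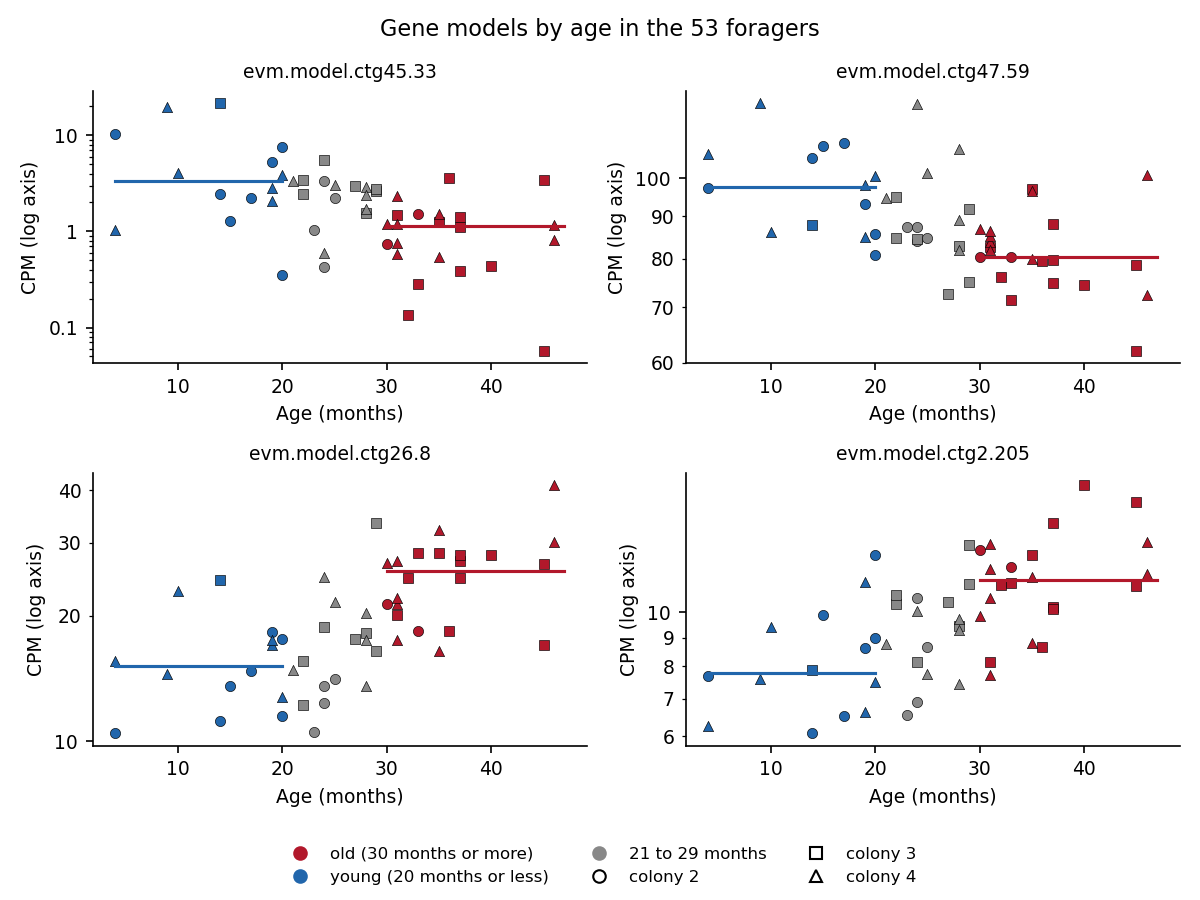
CPM on a log axis against age in months for 4 gene models in the 53 foragers, with 1 point per ant, shape for colony and a line at the median of each age class. Old foragers lie mostly below young ones for evm.model.ctg45.33 and evm.model.ctg47.59 and mostly above for evm.model.ctg26.8 and evm.model.ctg2.205, and the classes overlap in each.

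Within colonies 4 and 2, fitted singly, no gene was called. Colony 4, with 9 old and 6 young foragers, gave 0 of 10263 (0%), with 300 genes at an unadjusted p under 0.05 in edgeR. Colony 2 gave 0 of 10666 (0%), with 0.994% of genes at that level. In colony 3 the contrast sets 11 old foragers against B038 alone, which is assumed to vary like the old ones, so its 0 of 10808 (0%), with 341 genes at that level, compares that ant and not the class. limma-voom also called 0 in each colony, with 415, 120 and 398 genes at an unadjusted p under 0.05 in colonies 4, 2 and 3. No difference of the age contrast between colonies 2 and 4 passed an edgeR interaction test: 0 of 10200 genes were called (0%), 1.69% had an unadjusted p under 0.05, and limma-voom also called 0.

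Contrasts from different colonies share no ants. Across the genes tested in both, Spearman's rho of the log2 fold changes was -0.074 between colonies 4 and 2, -0.036 between colonies 4 and 3 and 0.232 between colonies 3 and 2, where the values of colony 3 rest on B038 as its only young forager. Pearson's r was 0.059, -0.122 and 0.053 for the same pairs of colonies. Genes are not independent of each other, and each contrast carries its own noise. The slope on age among the middle-aged foragers, also from other ants, had a rho of -0.111 with the contrast of old and young foragers over 9688 genes. That slope, over a range of 21 to 29 months, was called for 0 of the 9688 genes (0%, 602 at an unadjusted p under 0.05, edgeR, the only tool run on it).

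The nurse-forage ratio, the other term of the model, was called for 0 of 10263 genes (0%) in edgeR and 0 in limma-voom. An unadjusted p under 0.05 was reached by 1764 genes (17.2%) in edgeR and 1616 in limma-voom, against 369 for age class in the same edgeR model. The ratio took up 4.27% of the remaining variance.

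How far single ants strayed from their group did not pass a test between the classes. The spread of an ant was the root mean square residual of its log2 CPM from the model, scaled for leverage, the pull of that ant on its own fit. It ran from 0.348 to 0.712 in old foragers and from 0.391 to 0.747 in young foragers. It averaged 0.472 ± 0.0911 in old foragers and 0.504 ± 0.0973 in young foragers (SD). The difference within colonies, old minus young and weighted over the colonies, was -0.0566 (permutation p = 0.126, two-sided). Without colony 3 the difference, old minus young, was -0.073, with a permutation p of 0.0484. Over the 8371 genes with a median of at least 4 CPM it was -0.0208, with a permutation p of 0.511.

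Taking age as a number and adding the middle-aged ants gave more calls. Over all 53 foragers the slope on age was called for 35 of 10428 genes (0.336%), of which 20 rose and 15 fell with age, with 1199 at an unadjusted p under 0.05 in edgeR. Absolute slopes of the called genes ran from 0.0851 to 2.05 log2 per 12 months, with a median of 0.384. All 35 had the sign of their slope in the contrast of old and young foragers, which shares 36 of the ants. The slope of evm.model.ctg45.33 was -1.25 ± 0.20 per 12 months (edgeR adjusted p = 0.000802). The others named above were called too, at 0.28 ± 0.06 for evm.model.ctg26.8 (0.0205), 0.25 ± 0.05 for evm.model.ctg2.205 (0.0199) and -0.10 ± 0.02 for evm.model.ctg47.59 (0.0332). They had been picked from a contrast of the same ants, so these p-values are no separate evidence.

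The number of calls for the slope turned on single ants. It was 5 genes without C056, an old forager of 46 months, and 7 without C112, a young forager of 4 months, both at an end of the age range. Other ants of those ages moved the count less, to 37 without C016 (46 months) and 27 without A068 (4 months). The count grew to 1.07% of the genes tested without C117, a young forager of 10 months with a body length of 11.5. It was 98 genes without B019, an old forager of 45 months, and 73 without C071, a young forager with a body length of 12.4. It was 22 genes without B105 (old) and 23 without B108 or B110 (both middle-aged). Only 4 genes were called in each of the 53 fits that left out an ant. By colony, 1 gene was called without colony 2, 1 without colony 3 and 13 without colony 4. DESeq2 called 96 and limma-voom 50.

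Leaving out all 3 foragers with body lengths over 11 gave 199 calls of 10433 (1.91%), of which 81 were down and the others up, and which included all 35. Adding body length as a covariate to all 53 instead gave 39 calls. Without the 3 ants farthest out on the first component, the slope had 49 calls. In the contrast of old and young foragers both exclusions left 1 call. What sets the large ants apart in expression was not tested.

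**Figure D4:**
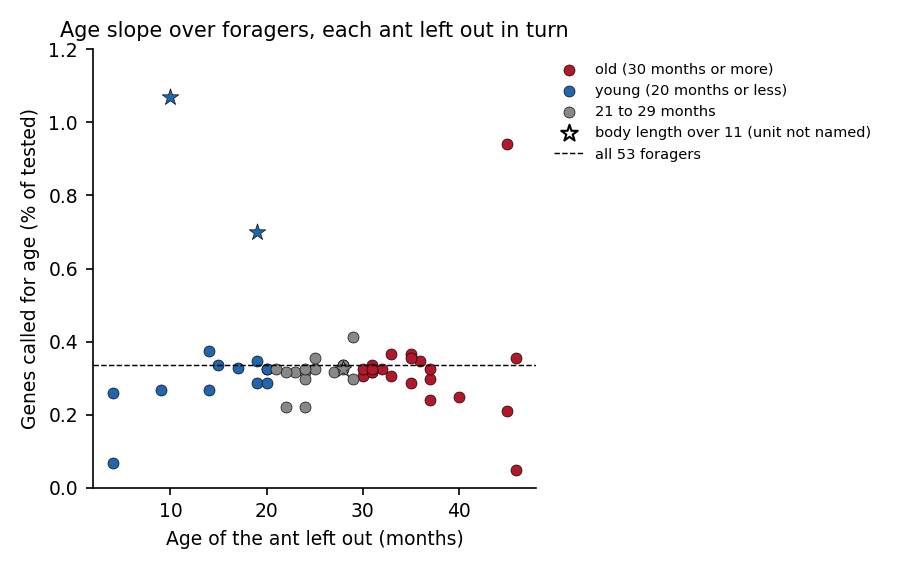
Share of the tested genes, in percent, called for the slope on age when 1 of the 53 foragers is left out, against the age in months of that ant, with stars for body lengths over 11 and a dashed line at the 0.336% called over all ants. Most points lie near the line, and the highest, without C117, is at 1.07%.

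More genes were called for age in the non-foragers, which are other ants. Fitted alone, their 17 old ants against the young gave 765 of 10824 genes (7.07%) called in edgeR, 437 higher and 328 lower in old ants. In these ants age went with the maturity value: oriented maturity averaged 0.591 ± 0.305 in old non-foragers and 0.165 ± 0.267 in young non-foragers (SD). In a joint model with the foragers 1104 of 10936 genes (10.1%) were called, 558 up and 546 down, and 23 with oriented maturity added. The median absolute log2 fold change over all genes was 0.0683 with maturity and 0.0769 without it, and the median standard error 0.0667 with it and 0.0606 without it. As a slope on age over all non-foragers at fixed maturity, 808 of 10859 genes (7.44%) were called. The non-foragers were also more numerous than the foragers, so the counts differ in power. Body length was not a covariate in any fit of non-foragers, and its part in these counts was not tested.

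Genes called in non-foragers had mixed signs in foragers. Of 741 genes called in non-foragers and tested in both, 470 (63.4%) had the same sign in foragers. Their median log2 fold change in the direction of the non-foragers was 0.04 in foragers and 0.23 in non-foragers, where they had been picked for their change. Regardless of sign, their median log2 fold change in foragers was 0.08, against a median standard error there of 0.12. For 1 in 10 of them it was above 0.33. Over all genes tested in foragers the median was 0.06, the median standard error 0.10, and 1 in 10 lay above 0.25. Over all 10263 genes Spearman's rho between the contrasts was 0.046 and Pearson's r 0.245, with no ants shared and with 48.9% of genes of the same sign. Among the 369 genes at an unadjusted p under 0.05 in foragers, 62.3% had the same sign in non-foragers. For the slope, 29 of the 35 genes called in foragers had the same sign in non-foragers at fixed maturity, against 53% of all genes, and 14 of the 35 were called there, all in the same direction, against the 7.44% of all genes. The 4 named genes were not among these 14, with edgeR adjusted p of 0.190 or more for the slope in non-foragers.

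**Figure D5:**
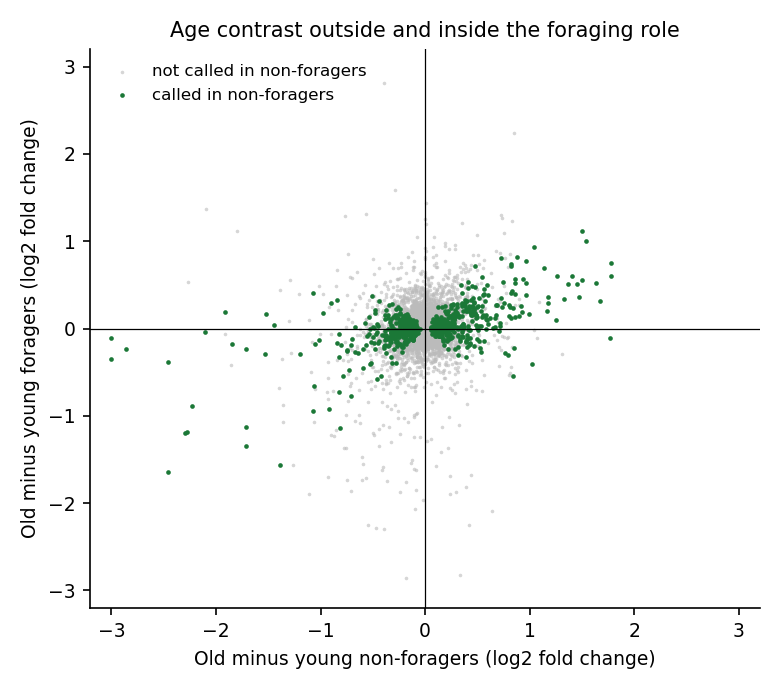
Log2 fold change of old minus young foragers against that of old minus young non-foragers fitted alone, 1 point per gene, with genes called in non-foragers in green (1 gene lies outside the axes). The green points lie off 0 on the horizontal axis, where they were chosen, and on both sides of 0 on the vertical one, with 63.4% of them of the same sign on both.

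The test of whether the age contrast differs with role depended on the covariates. With colony and ratio effects shared by both roles, the difference was called for 1125 of 10936 genes (10.3%) in edgeR. The same model called 559 genes (5.11%) for the age contrast in foragers, against 1 in the foragers' own fit. Colony and age class are tied among foragers, and under shared effects differences between the colonies of foragers and a difference with role cannot be told apart. With a role effect of its own in each colony 0.933% of genes were called, all among the 1125. With the ratio slope also left free in each role 0 were called in edgeR, the only tool run on that model, with 949 at an unadjusted p under 0.05. Without colony 2 the count under shared effects was 67, without colony 3 it was 535 and without colony 4 it was 764. Young non-foragers were also younger on average than young foragers. With a young class of 10 to 20 months in both roles, 2.24% of genes were called under shared effects.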

How the data were processed

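The deposited table holds raw counts of reads for 14664 gene models in 299 ants, made by the authors with STAR and featureCounts per the submitters' processing notes. The sources used here give no version, genome build, annotation or strand setting, so overlapping or near-identical gene models could share reads. Libraries were KAPA stranded mRNA, per the labels' protocols. The 10 ants without labels were not tested. No sequences are shown, since no reference was used.

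Counts were tested with edgeR 4.0.16 in R 4.3.3: quasi-likelihood F-tests, robust dispersions, TMM, filterByExpr with a minimum count of 10, with p-values adjusted by Benjamini-Hochberg across every tested gene and called below 0.05. The main model held age class, colony and ratio. Slopes are per 12 months. Joint models held age class by role. Single values were tested by two-sided permutation within colonies with 100000 resamples (Python 3.11.15). CPM used plain library totals, and log2 CPM a prior count of 1. Oriented maturity is 1 minus the deposited value in colony 4. Alternatives included RLE scaling, no filter, DESeq2 1.42.0, limma-voom (limma 3.58.1), other covariates and cuts, and left-out ants and colonies.

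The forager groups, tests and alternatives were chosen with earlier results of these data known. Some alternatives were added after seeing the data of this comparison: freer covariates in the joint model, non-foragers alone and age as a number in the 36 ants. Also added then were the slope without each ant, the slope with body length as a covariate, and the fits without both sets of ants standing apart. The rule for named genes took at most 2 in each direction with a median of at least 4 CPM, by fold among called genes and otherwise by smallest p. The called gene, evm.model.ctg45.33, fell below that bound and was named after its values were seen, in place of the second falling gene of the rule. Each library is 1 ant, and ants of a colony share that colony, so p-values measure the spread between ants within 3 colonies. Gene lists and cell type markers could not be matched to the identifiers.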

Additional observations from a re-analysis of the deposited data

Results flagged for a closer look

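An ant was flagged where its gap to the nearest other ant of its class and colony was large for the range of that group. The 2 old foragers of colony 2, the 11 of colony 3 and the lone young forager of colony 3, B038, were not screened. Their groups lay outside the sizes that the rule covers. Of 57 such groups of values 9 were flagged, where chance flags about 5 percent. In colony 4, library totals of 68.4 M reads (M, 1e+06 reads) in C031 (old) and 62.3 M in C034 (young) stood above the next, 42.5 and 38.6. Old foragers of colony 4 also held a ratio of 0.8 in C086, below the next at 0.903, and a spread of 0.565 in C014, above the next at 0.466. The young forager C013 of colony 4 had 19.6 CPM of evm.model.ctg45.33, against 4.06 in the next. Among middle-aged foragers, C084 had a body length of 12.8 (next 9.41) and a head width of 2.93 (next 1.60), B106 had 33.4 CPM of evm.model.ctg26.8 (next 18.8), and A122 had an oriented maturity of 0.995, just under the others at 1.

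The age contrast was tested for a difference between foragers and non-foragers, and 1125 genes were called with shared covariates. The 4 named genes were among these, which their choice favoured, since they were picked for the contrast in foragers that is 1 side of the difference. They had differences, foragers minus non-foragers, of -2.46 for evm.model.ctg45.33, -0.32 for evm.model.ctg47.59, 0.42 for evm.model.ctg26.8 and 0.54 for evm.model.ctg2.205 (log2). With a role effect of its own in each colony the differences were -2.67, -0.23, 0.45 and 0.50 in the same order, with standard errors of 0.66, 0.07, 0.16 and 0.16 and edgeR adjusted p-values of 0.211, 0.281, 0.371 and 0.340, so the calls were lost while 3 of the 4 sizes stayed within 1 standard error.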

How the results depend on the processing

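In old against young foragers, where 1 gene was called, 4 were called with no filter on low counts and 13 without colony as a covariate (7 up, 6 down). None was called by limma-voom, with a ratio of 0.6 or more, with an old class of 33 months or more, or without colony 3 or colony 4. The other 11 alternatives gave 1 call, and leaving out each ant gave 0 to 1. The slope over all foragers was called for 0.336% of genes, against 0.488% with no filter (65 genes for 35), 0.921% by DESeq2, 0.94% without the ratio, 0.00948% without colony 2, 0.00964% without colony 3, 0.125% without colony 4 and 1.91% without the large ants, and 0.048% to 1.07% leaving out each ant. In non-foragers the 1104 calls were 23 with oriented maturity (median absolute log2 fold change 0.0683, and 0.0769 without it), 658 with a young class of 10 to 20 months, 613 without colony 2, 412 without colony 4, 703 with role effects and ratio slopes left free and 35 with free role effects and maturity. The slope at fixed maturity, 808 calls, was 2922 without maturity. The difference between roles, 10.3% of genes, was 2.90% with maturity, 0.933% with free role effects, 2.24% with a young class of 10 to 20 months, 0.607% without colony 2, 4.92% without colony 3, 0% with free role effects and ratio slopes, and 0% with free role effects and maturity. Compared across colonies instead of within them, 3 labels reversed: oriented maturity -0.00238 (within colonies 0.0187), body length 0.168 (-0.0486) and nest cleaning -0.545 (0.53), none past the test. The spread difference was -0.073 without colony 3 and -0.0566 with it. The cause of these changes was not tested. The 4 named genes kept their sign in every alternative: evm.model.ctg45.33 lost its call in 5 of 18, at log2 fold changes of -2.28 (limma-voom), -2.62 (ratio of 0.6 or more), -2.83 (old class of 33 months or more), -3.09 (without colony 4) and -1.76 (without colony 3), and evm.model.ctg47.59 and evm.model.ctg26.8 gained one without colony as a covariate. Standard errors were largest for scarce genes. No paired analysis was possible because the numbers of the ants are names within a colony.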
